A study of Mus musculus with 6 samples.

Results

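The Rab family of small GTPases was examined in the deep cerebellar nuclei of mice trained in eyeblink conditioning. Members were all probe sets whose platform annotation gives a single gene symbol made of Rab, a number and at most 2 further letters or digits. This gave 103 probe sets for 55 genes, of 15964 genes with a single symbol on the arrays. Symbols of this form that belong to interacting proteins (Rab3ip, Rab5if) or to transcripts of the opposite strand (Rab10os, Rab26os) were set aside. All groups were male C57BL/6 mice of 11 to 18 weeks, carrying 4 wires in the left eyelid, with tone and eyelid shock on each of 7 days. In the paired group a tone of 352 ms came with a shock of 100 ms that began 252 ms after the tone, and in the unpaired group the same stimuli came apart in a pseudorandom order. Tissue centred on the anterior interpositus nucleus, on the side of the wired eye, was taken by syringe needle, and 10 to 15 nuclei were pooled for RNA. Both groups shared 3 recovery days and a sampling time of 10 to 30 min. Each training group was read on 3 array designs (A, B and C) with different probe sets, with 1 array per group and design. Whether 1 RNA preparation served all 3 designs is not given in the labels, so a pool here means the RNA on the array named. No difference given here has a replicate or a test, and every value describes these pools only.

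Rab proteins are molecular switches that cycle between a GTP-bound form on membranes and a GDP-bound form held in the cytosol. Each marks a membrane compartment and recruits the motors, tethers and fusion factors that move and dock vesicles there. In neurons Rab3 and Rab27 act on vesicles before release, Rab5, Rab4 and Rab11 carry receptors through endosomes, Rab1, Rab2 and Rab6 serve the endoplasmic reticulum and Golgi, and Rab7 and Rab9 act at late endosomes.

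Values are log2 signals, with the paired array shifted by 0.010, 0.0084 and 0.0067 on designs A, B and C to match the unpaired one. A log2 ratio is the paired minus the unpaired log2 signal. Of the 103 Rab probe sets, 71, for 49 genes, lay at or above the median signal of their design and were kept. This is 68.9%, where 53.1% of all probe sets with a single symbol were kept. The Rab probe sets therefore lay high among the signals of these arrays, and 44 of them (42.7%) were at or above the 75th percentile. Design A held 35 of the kept probe sets, design B 22 and design C 14.

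The signal rank of a probe set is its percentile within the design, and it describes the probes as much as the transcript. The highest Rab ranks on design A were 97.9 for a Rab6a probe set, 96.7 for Rab18 and 94.6 for Rab11b. On design B they were 99.2 for Rab6b, 96.9 for Rab15 and 96.0 for Rab40c, and on design C 99.3 for Rab28, 91.6 for Rab6b and 86.7 for Rab11a. Probe sets of the same gene could lie far apart. Rab14, a Golgi and endosome Rab, had a probe set at rank 94.3 on design A and others between 7.07 and 32.9 on designs A and B. Rab1a, which controls export from the endoplasmic reticulum, had ranks of 79.2 and 10.7 on design A. In 13 Rab probe sets both pools lay at the floor, the 25th percentile of the design. Just inside the filter lay a Rab2b probe set on design C (rank 50.4) and Rab3b on design A (50.7), and just outside it Rab26 (47.6) and a Rab5b probe set (47.3), both on design B.

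The genes with no kept probe set were Rab3d, Rab9b, Rab26, Rab27a, Rab32 and Rab40b. Rab32, which acts on lysosome-related organelles and mitochondria, had the largest log2 ratio among them, with 3.29 after unpaired and 3.85 after paired training on design B, while on design C its unpaired signal was at the floor. A low Rab23 probe set on design B had 4.27 and 3.75, a log2 ratio of -0.53, and the kept Rab23 probe set of the same design went the other way at 0.15. Low signals thus gave some of the widest differences, and the counts that follow leave them out.

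The first comparison asked whether Rab transcripts differed between the pools of paired and unpaired training. Most Rab probe sets lay close together in the pools: 53 of 71 (74.6%) were within 1.2-fold, against 83.6% of all kept probe sets. At least 1.2-fold lower in the paired pool were 12 Rab probe sets (16.9%), where the share among all 18351 kept probe sets was 8.33%. At least 1.2-fold higher were 6 (8.45%), where the share was 8.03%. Past 1.5-fold there were 0 higher and 1 lower, with shares of 0.349% and 0.332% over all kept probe sets. As genes, each the mean of its kept probe sets, 28 of 49 were lower and 21 higher, with a median log2 ratio of -0.04 and an SD over genes of 0.19. The same over all 10579 genes was a median of -0.0039, an SD of 0.17 and 51.0% lower.

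**Figure D1:**
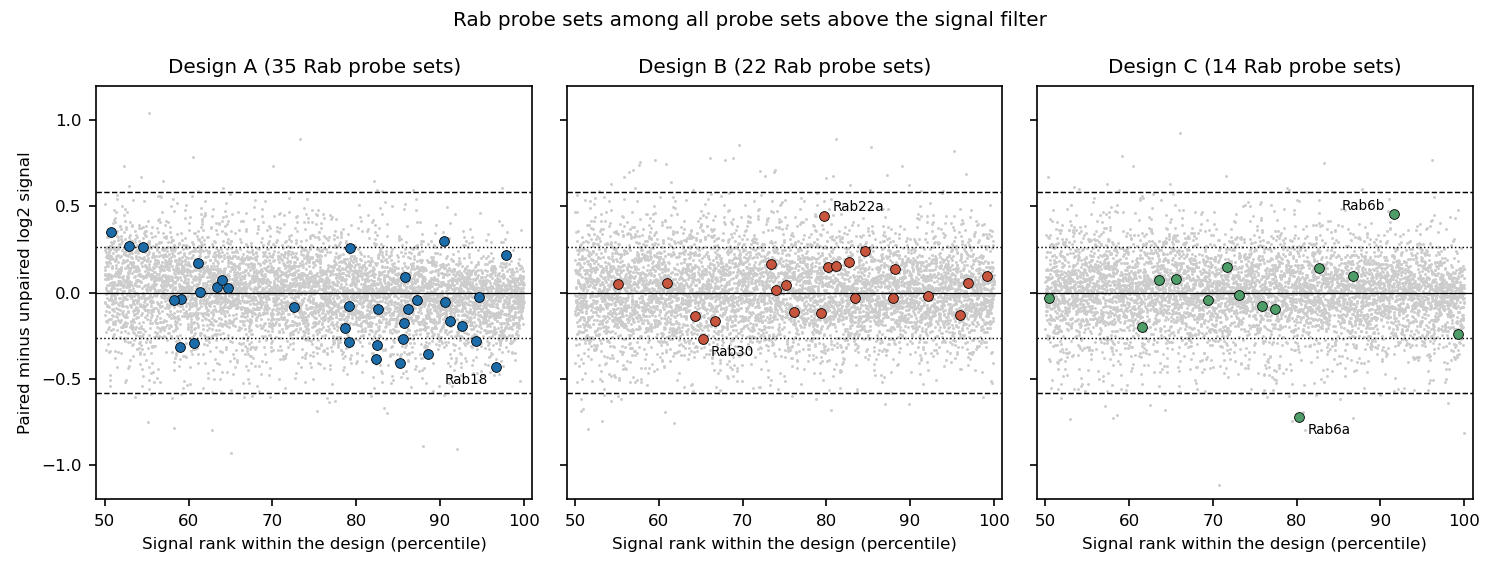
Log2 ratio, paired minus unpaired, against signal rank within the design in percentiles, for Rab probe sets (coloured points) among all kept probe sets (grey) of each design. Dotted lines mark 1.2-fold and dashed lines 1.5-fold. The 1 Rab point past a dashed line is Rab6a on design C, and most points under the lower dotted line are on design A.

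The lower probe sets were not spread evenly over the designs. On design A 10 of 35 Rab probe sets were at least 1.2-fold lower, beside 8.31% of all kept probe sets of that design, and the Rab median log2 ratio was -0.08. On design B 1 of 22 was, beside 8.57%, and the Rab median was 0.05. On design C 1 of 14 was, beside 8.11%, and the median was -0.03. The low side of the family thus rests on design A: without it, 2 probe sets were at least 1.2-fold lower and 2 at least 1.2-fold higher. Whether this goes with the array, the RNA put on it or the genes that the design holds was not tested, and 1 array per pool and design cannot tell them apart. Design A also held higher Rab probe sets: 4 of 35 (11.4%) were at least 1.2-fold higher, beside 7.04% of all kept probe sets of that design.

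**Figure D2:**
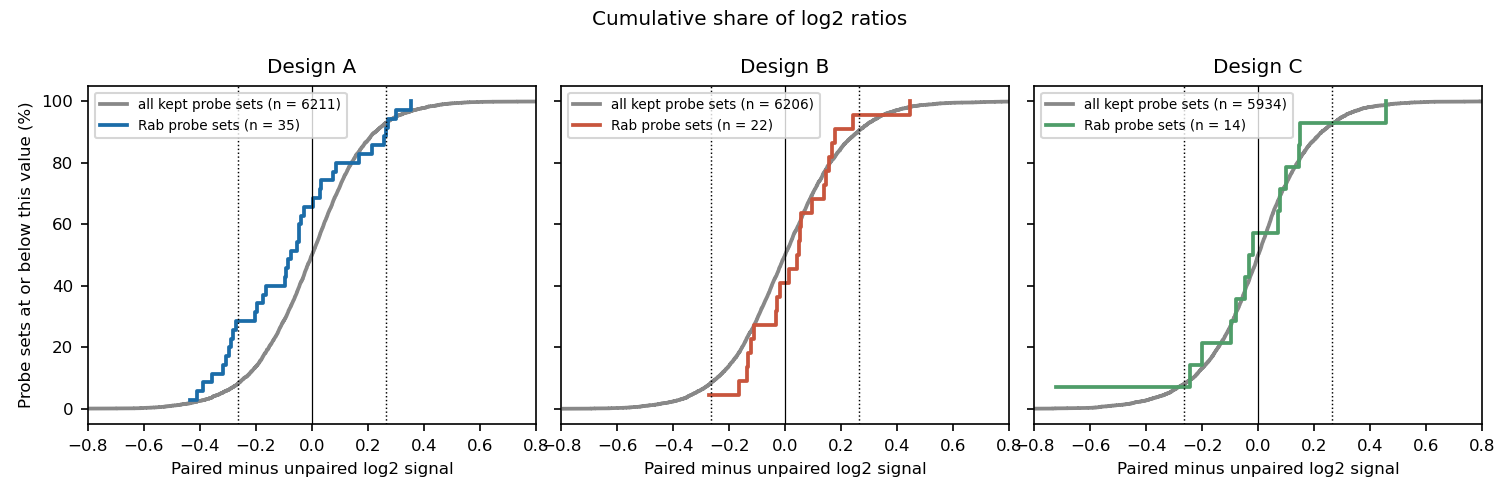
Cumulative percentage of probe sets at or below each log2 ratio, for Rab probe sets (colour) and all kept probe sets (grey), by design. Dotted lines mark 1.2-fold. On design A the Rab curve runs to the left of the grey curve below 0 and to its right at 1.2-fold higher. On designs B and C the curves cross as well.

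On design A most Rab probe sets of middle to high signal were lower, and some of lower signal were too. Between the 75th and 90th percentile of signal 12 of 14 were lower and 6 were at least 1.2-fold lower, beside 9.13% of all kept probe sets of that band, with a median of -0.19, while all kept probe sets of that band had a median of -0.01. Between the 50th and 75th percentile 8 of 13 were higher, with a median of 0.03, as for all kept probe sets there. Of these 13, 3 were at least 1.2-fold higher (beside 9.95% of all kept probe sets of the band) and 2 lower (beside 7.89%). At or above the 90th, 6 of 8 were lower, with a median of -0.11 against -0.04. Of these 8, 2 were at least 1.2-fold lower (beside 8.13%) and 1 higher (beside 2.33%). Loess and quantile scaling adjust for a trend with signal. With either, 8 rather than 10 of the 35 were at least 1.2-fold lower. Beside this, 8.28% (loess) and 8.03% (quantile) of all kept probe sets of design A were. The part of such a trend in the Rab values was not tested.

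Markers of other cells in the dissected tissue also differed between the pools. Of 8 listed granule cell markers 4 were measured and all 4 had the larger signal after paired training, at a mean log2 signal over probe sets of 6.21 after unpaired and 6.71 after paired training. Purkinje cell markers were higher in 5 of 6 of 8 listed (6.63 and 6.76), and oligodendrocyte markers lower in 5 of 6 of 8 listed (8.65 and 8.54). Markers of the deep nuclear projection neurons, which define the labelled tissue, were measured in 5 of 8 genes, at a median rank of 94.3 and with means of 7.32 and 7.35. Of these genes 2 were higher and 3 lower, with a median log2 ratio of -0.03. Astrocyte and Bergmann glia markers were higher in 4 and lower in 4 of 8 genes (median -0.04), and microglia markers higher in 4 and lower in 2 of 6 measured (median 0.05). The part of these cells in the Rab values was not tested. In pooled tissue, fewer cells of a type and less RNA per cell cannot be told apart.

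Rab GTPases of regulated exocytosis lay partly under the signal filter. Of 8 genes 5 were measured and 4 were higher in the paired pool, with a median log2 ratio of 0.09. By design the median was 0.30 (A), 0.21 (B) and -0.08 (C), each over few genes. Of the 7 kept probe sets 0 were at least 1.2-fold lower and 1 at least 1.2-fold higher, beside 8.33% and 8.03% of all kept probe sets. That one was Rab3b, a vesicle Rab with a narrower neuronal distribution than Rab3a, with 4.69 after unpaired and 5.04 after paired training. Its log2 ratio of 0.35 was the largest of any Rab gene, and its rank of 50.7 lay just above the filter. With the floor set at the median signal the ratio was 0.22, under 1.2-fold and under those of Rab8b and Rab5b.

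Rab3a, the main Rab of synaptic vesicles, had 6.57 after unpaired and 6.82 after paired training on design A, a log2 ratio of 0.26. Its kept probe set on design C had 4.70 and 4.63, a log2 ratio of -0.08. Rab3c, which shares vesicles with Rab3a, showed the same split. It had 6.18 and 6.42 on design B (0.24) and 4.85 and 4.76 on design C (-0.10). Both genes were thus higher on their brighter design and slightly lower on design C. There both kept probe sets carried a suffix that marks probes chosen outside the standard rules. Under the filter, a dimmer probe set of each gene on design C was lower too, at -0.13 for Rab3a and -0.09 for Rab3c. Another Rab3a probe set of design A lay at the floor in both pools. Without suffixed probe sets the gene values were 0.26 for Rab3a and 0.24 for Rab3c. Rab3d, best known from secretory granules, lay under the filter with 4.35 and 4.41 on design A. Rab27b, which docks secretory vesicles at the membrane, had 6.06 and 6.24 on design B, a log2 ratio of 0.18. Its relative Rab27a, under the filter on the same design, had 3.60 and 3.87. Rab37, found on secretory granules, hardly differed, with 4.48 and 4.46 on design C.

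Rab GTPases of the endoplasmic reticulum and Golgi included the lowest gene, Rab18, and the gene with the widest range over probe sets, Rab6a. All 13 genes were measured, 8 lower and 5 higher, with a median of -0.04, which was 0.09 on design B and 0.06 on design C. Of 20 probe sets 4 were at least 1.2-fold lower (20%, beside 8.33% of all kept probe sets) and 1 at least 1.2-fold higher (5%, beside 8.03%). Rab18, which acts at the endoplasmic reticulum and on lipid droplets, had 9.20 after unpaired and 8.76 after paired training. This was a log2 ratio of -0.44, or 1.35-fold lower, the lowest of any Rab gene, read by 1 bright probe set on design A. Rab2a, which acts between the endoplasmic reticulum and the Golgi, had 7.68 and 7.32 on design A (-0.36). Its paralogue Rab2b stood at 5.46 and 5.63 on design B and at 5.27 and 5.41 on design C, and a dim probe set of design C gave -0.03. Rab30, a Golgi Rab, had 5.22 and 4.95 on design B (-0.27).

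Rab6a and Rab6b, closely related Rabs of Golgi vesicle traffic, differed in how far their probe sets agreed. Rab6a had the only Rab probe set past 1.5-fold, with 5.45 after unpaired and 4.72 after paired training on design C, a log2 ratio of -0.72. That probe set carries such a suffix too. The brighter Rab6a probe sets of design A had 9.38 and 9.60, and 7.39 and 7.35, which are log2 ratios of 0.22 and -0.05. The large difference was thus found on 1 probe set of 3. Rab6b, the form enriched in neurons, was higher in the paired pool on all 3 of its probe sets. It had 8.80 and 8.89, and 6.51 and 6.65, on design B, and 6.13 and 6.58 on design C. The log2 ratios were 0.10, 0.14 and 0.46.

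**Figure D3:**
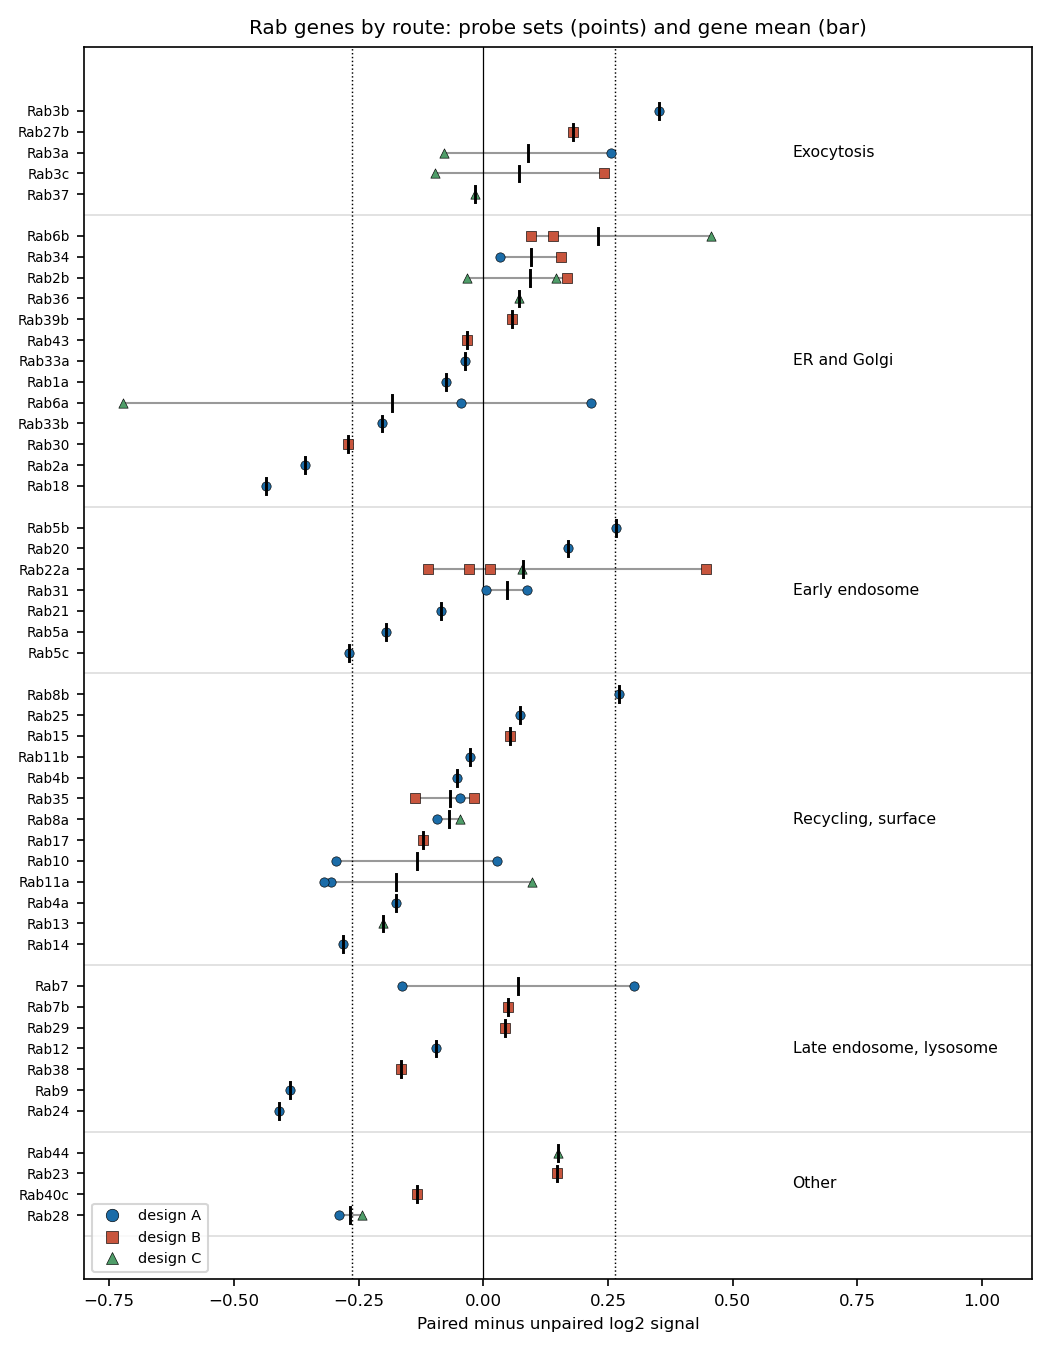
Log2 ratio, paired minus unpaired, of the 49 measured Rab genes, grouped by the membrane route they serve. Points are probe sets, marked by design, grey lines join probe sets of a gene, black bars are gene means and dotted lines mark 1.2-fold. Rab6a, from -0.72 to 0.22, has the longest line.

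Among the early endosome Rabs, 4 of 7 genes were higher and 3 lower, with a median of 0.05. Of 12 probe sets 2 were at least 1.2-fold higher (16.7%, beside 8.03% of all kept probe sets). At least 1.2-fold lower was 1 (8.33%, the same as the share of all kept probe sets). With the brightest probe set of each gene the median was -0.03. The Rab5 paralogues, which drive fusion of early endosomes, stood apart on the same design. Rab5a had 8.15 after unpaired and 7.96 after paired training (-0.19), Rab5c 7.35 and 7.08 (-0.27) and Rab5b 4.97 and 5.24 (0.27). A dimmer Rab5b probe set on design B, under the filter, was also higher, at 4.16 and 4.25. Rab22a, which acts between early and recycling endosomes, was read by 5 kept probe sets. One of them had 5.72 and 6.17 on design B, a log2 ratio of 0.45, and the others lay between -0.11 and 0.08. Rab20 had 5.43 and 5.60 on design A.

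Rabs of recycling and of delivery to the plasma membrane included 10 lower genes of 13 and had a median of -0.07. Of 19 probe sets 4 were at least 1.2-fold lower (21.1%, beside 8.33% of all kept probe sets) and 1 higher (5.26%, beside 8.03%). Rab11a, which brings receptors from recycling endosomes back to the surface, accounted for 2 of these 4. It had 7.09 after unpaired and 6.79 after paired training on one probe set of design A and 5.52 and 5.20 on another, log2 ratios of -0.31 and -0.32. On design C, however, it had 5.73 and 5.83, a log2 ratio of 0.10. Rab14 had 8.54 and 8.26 on its bright probe set of design A (-0.28). Under the filter, dim Rab14 probe sets gave -0.13 on design A and 0.015 on design B, and the rest lay at the floor in both pools. Rab10, which acts in delivery to the plasma membrane and in axon growth, had 5.63 and 5.33 on one probe set of design A (-0.30) and 5.73 and 5.75 on another (0.03).

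Rab8b, a Rab of transport from the Golgi to the surface, stood on the other side. It had 4.86 after unpaired and 5.13 after paired training on design A (0.27), and a dimmer probe set on design B, under the filter, had 3.16 and 3.45. Its paralogue Rab8a was slightly lower on both kept probe sets, at 7.30 and 7.21 on design A and 4.21 and 4.16 on design C. Rab13, a junction Rab, had 3.75 and 3.55 on design C, and Rab4a, of the fast recycling route, 7.31 and 7.14 on design A. Rab35, also a recycling Rab, was lower on all 3 kept probe sets, by log2 ratios of -0.02 to -0.14, the narrowest range of any Rab gene with 3 or more.

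Rabs of late endosomes, lysosomes and autophagy had 7 of 9 genes measured, 4 lower and 3 higher, with a median of -0.09. The median was -0.24 on design A and 0.04 on B. Rab24, tied to autophagy, had 7.37 after unpaired and 6.96 after paired training (-0.41). Rab9, which returns receptors from late endosomes to the Golgi, had 7.12 and 6.73 (-0.39). Each was read by 1 kept probe set of design A. Rab7, which governs fusion with lysosomes, gave opposite signs on 2 bright probe sets of the same design, with 7.56 and 7.86 (0.30) and 7.91 and 7.75 (-0.16). The higher one carries a suffix, and without it the gene value turned from 0.07 to -0.16. Rab38, of lysosome-related organelles, had 5.25 and 5.09 on design B, and Rab12, which acts on lysosomes, 7.00 and 6.91 on design A.

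**Figure D4:**
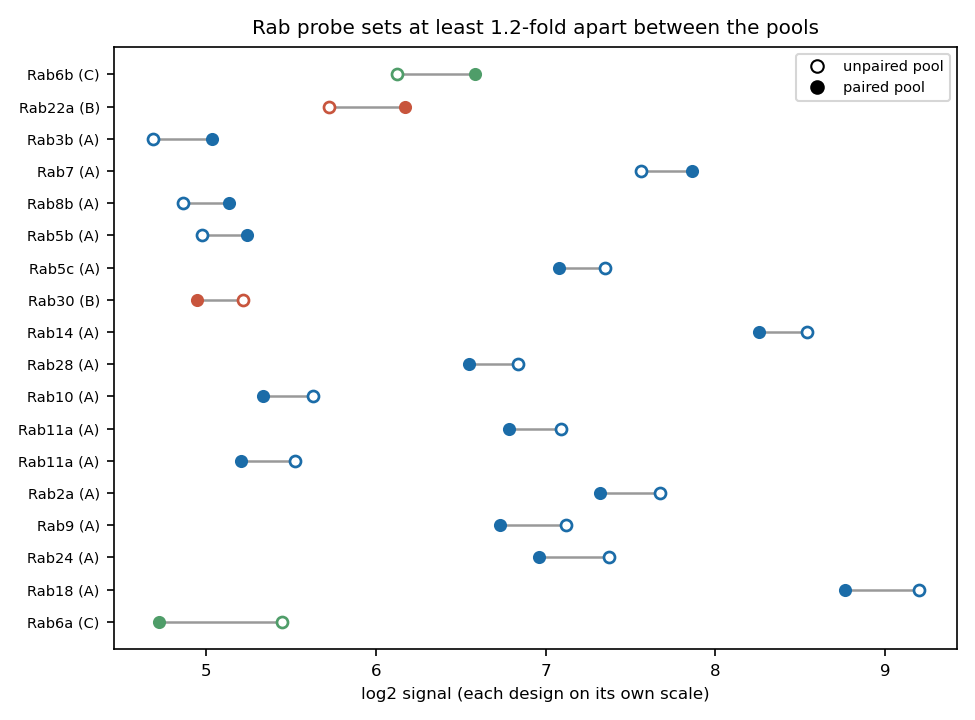
Log2 signal in the unpaired pool (open circles) and the paired pool (filled circles) for the 18 kept Rab probe sets at least 1.2-fold apart, with the design in brackets and in colour. The 12 at the bottom were lower and the 6 at the top higher in the paired pool, and 14 of the 18 are on design A.

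Outside these routes, Rab28, a Rab of the photoreceptor and ciliary membrane, was lower on probe sets of different designs. It had 6.84 after unpaired and 6.55 after paired training on design A (-0.29) and 8.89 and 8.64 on design C (-0.24), where its probe set carried a suffix. Rab40c, a substrate adaptor of ubiquitin ligases, had 7.60 and 7.47 on design B. Rab23, which represses hedgehog signalling, had 5.91 and 6.05 on design B, and Rab44, a large atypical Rab, 4.27 and 4.42 on design C.

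Agreement between probe sets of a Rab gene bears on every gene value. Of 14 Rab genes with 2 or more kept probe sets, 6 had all of them in one direction (42.9%), where 42.1% of all 3437 such genes did. Higher throughout were Rab6b, Rab31 and Rab34, and lower throughout were Rab8a, Rab28 and Rab35. The SD between probe sets of a gene was 0.23 for Rab genes and 0.20 for all genes, about as large as the SD of 0.22 over all kept Rab probe sets. The ranges were widest for Rab6a (0.94), Rab22a (0.56) and Rab7 (0.47). Of the genes with the lowest means, Rab18, Rab24, Rab9, Rab2a, Rab14 and Rab30 each rest on 1 kept probe set, and so do the 3 highest, Rab3b, Rab8b and Rab5b.

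Rab28 and Rab6b, the genes whose probe sets lay on more than 1 design and whose mean was farthest below or above 0 in the same direction throughout, are shown with the 250 bases before their RefSeq start. Rab5a is shown because it is the lower of the 2 Rab genes that hold a full cyclic AMP response element, the site of a factor that neuronal activity can switch on. The sequences are from RefSeq on GRCm38.p6, each 5′ to 3′ on the strand of the gene, at chr5:41708180-41708429 (minus strand) for Rab28, chr9:103111824-103112073 (plus strand) for Rab6b and chr17:53478984-53479233 (plus strand) for Rab5a. Capitals mark matches on either strand to TGACG, the short site that the full element TGACGTCA contains on both strands, or to GGGCGG, the GC box.

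Rab28: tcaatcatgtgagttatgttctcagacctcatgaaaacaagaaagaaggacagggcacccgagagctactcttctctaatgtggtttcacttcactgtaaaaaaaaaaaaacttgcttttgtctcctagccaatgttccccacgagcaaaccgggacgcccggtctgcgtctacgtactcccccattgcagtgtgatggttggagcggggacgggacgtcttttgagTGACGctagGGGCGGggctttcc
Rab6b: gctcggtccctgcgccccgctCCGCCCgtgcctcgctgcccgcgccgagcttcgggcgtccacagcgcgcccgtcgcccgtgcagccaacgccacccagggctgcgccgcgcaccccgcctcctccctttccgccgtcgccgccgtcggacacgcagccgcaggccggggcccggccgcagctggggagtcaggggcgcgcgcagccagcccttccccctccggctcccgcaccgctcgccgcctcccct
Rab5a: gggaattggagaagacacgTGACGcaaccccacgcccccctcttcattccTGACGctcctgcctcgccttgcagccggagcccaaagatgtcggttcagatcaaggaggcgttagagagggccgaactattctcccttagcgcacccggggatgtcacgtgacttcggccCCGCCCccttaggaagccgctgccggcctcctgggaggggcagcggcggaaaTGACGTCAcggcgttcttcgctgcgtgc

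Such windows were found for 44 of the 55 Rab genes by symbol, 39 of them with a kept probe set. The short site TGACG occurred in a window of 21 of these 39 genes (53.8%), where 29.8% of 8500 genes with a kept probe set and a window held it. It was in 8 of 17 higher and 13 of 22 lower Rab genes. The GC box occurred in 29 of the 39 (74.4%), where the share was 62.9%, in 14 of 17 higher and 15 of 22 lower genes. The full element was in Rab5a and Rab25 (5.13% of the 39), where the share was 2.91%. A match to these letters is a description of the window and not a bound site.

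The proteins that regulate Rabs, and those that Rabs recruit or that are otherwise tied to them, were compared as lists. Regulators, which insert, extract, activate or switch off Rabs, had 64 of 83 genes measured, 36 lower and 28 higher, with a median log2 ratio of -0.03. Of their 96 probe sets 10 were at least 1.2-fold lower (10.4%) and 7 higher (7.29%), close to the shares of 8.33% and 8.03% over all kept probe sets. The exchange factor gene Dennd2a had 6.31 after unpaired and 5.86 after paired training (-0.46). Rgp1, part of the exchange factor of Rab6, had 4.84 and 4.39 (-0.45), and the exchange factor gene Dennd4b 6.18 and 5.87 (-0.30). Dennd2a, Rgp1 and Dennd4b each rest on 1 kept probe set.

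The list of effectors holds proteins that bind the GTP form or are otherwise tied to Rabs. Of these, 60 of 83 genes were measured, 35 lower and 25 higher, with a median of -0.03. Of their 90 probe sets 12 were at least 1.2-fold lower (13.3%, beside 8.33% of all kept probe sets) and 6 higher (6.67%, beside 8.03%). Past 1.5-fold higher was 1, beside 0.349%. That one was Ehbp1, which links Rab8 and Rab10 membranes to actin, with 5.12 after unpaired and 5.82 after paired training (0.71). Osbpl1a, a sterol-binding partner of Rab7, had 7.91 and 7.37 (-0.54), and Syn1, a protein on synaptic vesicles, 6.42 and 6.06 (-0.36). Rph3a, rabphilin, which binds Rab3 and Rab27 on vesicles and was named after its values were seen, had 9.94 and 9.59 (-0.34). Ehbp1, Osbpl1a, Syn1 and Rph3a were each read by 1 kept probe set. The Rab3 genes themselves had gene log2 ratios of 0.35, 0.09 and 0.07.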

How the data were processed

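Pooled RNA of 2 training groups of mice was read on 1-colour arrays of 3 designs, 6 arrays in all. The authors deposited a log2 signal for each probe set. Its log base was inferred from the values' range. How probes were summarized, background-corrected and normalized is not given in the sources used here. Control probe sets (198) were left out, and designs were never normalized together.

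With Python 3.11.15 and pandas 2.3.3, a constant was added to each paired array to bring the median log2 ratio of the brighter 50% of probe sets to 0. Signals under the 25th percentile were set to it, and 18351 of 36701 probe sets, those whose mean signal reached the median of their design, were kept. Gene values are means over kept probe sets. The steps were tested on simulated data. The 103 Rab symbols matched those of the current RefSeq gene table. A probe set can also read close paralogues, which was not checked against sequence.

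Genes were named by rule: those past 1.5-fold, the 6 highest and 6 lowest, up to 4 per route, the widest and narrowest ranges over probe sets, the 3 highest signal ranks per design, 3 per list, and all of Rab3 and Rab27. Genes of low signal, further probe sets of named genes and the genes that completed a paralogue group were added after seeing the values. Members and lists were chosen with earlier results of these data known. Counting probe sets with several symbols changed nothing, since 0 of them held a Rab symbol.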

Additional observations from a re-analysis of the deposited data

How the results depend on the processing

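With 1 array per pool and design, the precision is limited by the number of arrays. The bound for a median was the SD over its genes divided by the square root of their number, which was 0.0265 for the Rab median. It is a yardstick for changes in processing only. Genes read on the same arrays are not replicates, so it does not measure the error of a difference between pools. Counts were compared with a factor of 1.5. No scaling, quantile or loess scaling and either floor moved no median or count of the family, routes and lists past these bounds. With no scaling, however, 4 rather than 6 of 71 probe sets were at least 1.2-fold higher (5.63%, beside 7.51% of all kept probe sets). With quantile or loess scaling 10 rather than 12 were at least 1.2-fold lower (14.1%, beside 8.27% and 8.40% of all kept probe sets). The cause of the changes that follow, several of them in sign, was not tested, except that fewer probe sets give lower counts.

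On design A alone the Rab median was -0.0798, with 10 of 30 genes above 0 and 0 of 35 probe sets past 1.5-fold. Outside the routes the value there was that of Rab28 alone, -0.29. Medians were -0.242 for late endosomes, 0.304 for exocytosis (Rab3a and Rab3b only) and -0.0737 for effectors. On design B alone the Rab median turned to 0.0537, with 11 of 17 genes above 0. Of 22 probe sets there 1 was at least 1.2-fold higher (4.55%, beside 9.65% of all kept probe sets of that design). At least 1.2-fold lower was 1 (4.55%, beside 8.57%), and 0 were past 1.5-fold. Medians were 0.087 for Golgi, 0.0436 for late endosomes, 0.211 for exocytosis (Rab3c and Rab27b only), 0.00273 for regulators and 0.00587 for effectors. On design C alone 6 of 13 genes were above 0. Of 14 probe sets there 1 was at least 1.2-fold higher (7.14%, beside 7.38% of all kept probe sets of that design) and 1 lower (7.14%, beside 8.11%). Medians were 0.064 for Golgi, -0.0788 for exocytosis and 0.00134 for regulators.

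With no signal filter the medians were -0.126 outside the routes, 0 for late endosomes and -0.00949 for regulators. With the filter at the 75th percentile the Rab median was -0.0754, with 12 of 33 genes above 0. Of 44 probe sets 3 were at least 1.2-fold higher (6.82%, beside 6.07% of all probe sets kept by that filter). At least 1.2-fold lower were 9 (20.5%, beside 8.22%). Medians were then -0.132 outside the routes, -0.0537 for early endosomes and -0.00407 for regulators. With the brightest probe set per gene, 3 of 49 were at least 1.2-fold higher (6.12%, beside 8.03% of all kept probe sets). At least 1.2-fold lower were 7 (14.3%, beside 8.33%), 6 of them on design A, and 0 were past 1.5-fold. Medians were then -0.0298 for early endosomes, -0.0267 for recycling, 0.241 for exocytosis and -0.00337 for regulators. Without suffixed probe sets 0 of 59 were past 1.5-fold and the exocytosis median was 0.241. Counting the 4 symbols set aside, an alternative chosen after seeing the data, gave 23 of 52 rather than 21 of 49 genes above 0. Of 75 probe sets 12 were then at least 1.2-fold lower (16%, beside 8.33% of all kept probe sets).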

Other observations

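Other families of small GTPases were chosen after the Rab values were seen. Of the Ras, Rap and Ral family, which relays growth factor signals, 10 of 12 measured genes were lower in the paired pool, with a median log2 ratio of -0.09. Rit2, a neuronal member, had -0.27 over 3 probe sets that were all lower, and Rala, which acts on the exocyst, -0.13 over 4 that were all lower. The Arf, Arl and Sar family, which acts on Golgi and endoplasmic reticulum coats, had 7 of 11 genes higher and a median of 0.04. The Golgi gene Arl1 had 0.48 over 1 probe set and Sar1a 0.20 over 3 probe sets. At least 1.2-fold lower were 4 of 22 kept probe sets of the Ras, Rap and Ral family and 1 of 15 of the Arf, Arl and Sar family, and at least 1.2-fold higher were 0 and 4. Over all kept probe sets the shares were 8.33% lower and 8.03% higher.

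Of the symbols set aside, Rab10os, a transcript of the strand opposite Rab10, stood at 4.99 (log2 signal) after unpaired and 5.23 after paired training on design A. Rab5if had 7.76 and 7.81 on design A, and its probe set on design C, under the filter, 2.95 and 2.48. Rab3ip had 5.39 and 5.29 on design A and 6.38 and 6.43 on design C.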
